A study of Mus musculus with 12 samples.

Results

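Potassium channel subunits were taken as every row of the expression table whose gene symbol is Kcn, then lower-case letters, then a number. The rule found 92 members among 23423 rows. Of these, 50 reached 1 read in 1000000 assigned reads (counts per 1000000, CPM) in at least 2 of the 12 libraries, as did 13977 genes in all, and only these were tested.

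RNA was sequenced from CD1 mouse hearts taken at postnatal day 1.5, in 6 groups of 2 libraries. In 4 groups fibroblasts were grown in wells in serum-containing medium for 3 days after viral infection, and in 2 groups cells were lysed without culture. The shPtbp1 group carried MGT, a pMXs-puro retrovirus that encodes Mef2c, Gata4 and Tbx5, transcription factors of the developing heart, plus a lentiviral hairpin against the splicing regulator Ptbp1. The shNT group carried MGT plus a non-targeting lentiviral hairpin, and the MGT group carried MGT without a lentivirus. The control group carried a pMXs-puro control vector, which the sample titles call lacZ and other labels call empty. CM were cardiomyocytes purified with a neonatal isolation kit. CF were fibroblasts selected with Thy1 magnetic beads after enzymatic digestion, and the same kind of cells was used for the cultures. The source label of shPtbp1 replicate 2 names Ptbp2, whereas its title and treatment label name Ptbp1. No label states that the 2 libraries of a group came from separate litters or infections, so the p-values measure only the spread between these libraries.

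Libraries held 49320858 to 94005212 reads assigned to genes, so that 1 read was worth 0.0106 to 0.0203 CPM. Ptbp1 stood at 81.3 and 78.7 scaled CPM in the shPtbp1 libraries, against 360 and 365 in the shNT libraries. Tbx5 stood at 1770 and 1849 scaled CPM in MGT, against 645 and 677 in control and 6.82 and 7.41 in CF. The 8 cardiomyocyte markers summed to 14450 to 15230 scaled CPM in CM, against 1512 to 1548 in CF. The 8 fibroblast markers summed to 8944 to 9005 in CM, against 17420 to 17880 in CF, so each preparation held RNA of both marker lists. The 8 endothelial markers summed to 3950 to 3955 in CM and 3130 to 3194 in CF, and to 172.9 to 198.6 in the 8 cultured libraries. Scaled CPM are CPM after division by each library's median-of-ratios factor, which lay between 0.965 and 1.08.

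Potassium channels are membrane proteins whose pore-forming subunits let potassium leave or enter the cell, and they set the resting potential and the repolarisation of the cardiac action potential. Voltage-gated pores open on depolarisation, inward rectifiers hold the membrane near the potassium equilibrium potential, two-pore-domain channels carry background currents, and calcium- or sodium-activated channels respond to those ions. Accessory subunits change the gating or trafficking of the pores, and silent subunits of the Kcnf, Kcng, Kcns and Kcnv groups form no channel alone but combine with voltage-gated pores. Fibroblasts, endothelial cells, pericytes and macrophages have channel sets of their own.

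The promoters of 4 genes are shown for the members on which the day 3 results turn, in lower case with motif matches in capitals. Kcnc4 and Kcna6 were among the 3 members with the largest increase under MGT, and Kcnj15 had the largest decrease there and Kcnj8 the largest decrease in culture. Each stretch runs 5′ to 3′ from 250 bases before the RefSeq start to 50 bases after it (GRCm38.p6), at chr3:107458849-107459148 on the minus strand for Kcnc4, chr6:126740625-126740924 on the minus strand for Kcna6, chr16:95257308-95257607 on the plus strand for Kcnj15 and chr6:142571565-142571864 on the minus strand for Kcnj8.
Kcnc4: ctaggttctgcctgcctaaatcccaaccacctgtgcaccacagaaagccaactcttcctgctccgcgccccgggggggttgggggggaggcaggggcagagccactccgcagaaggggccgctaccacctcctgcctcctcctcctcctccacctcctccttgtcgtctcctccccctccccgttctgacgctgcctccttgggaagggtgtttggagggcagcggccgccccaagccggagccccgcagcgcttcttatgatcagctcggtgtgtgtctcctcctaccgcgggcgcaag
Kcna6: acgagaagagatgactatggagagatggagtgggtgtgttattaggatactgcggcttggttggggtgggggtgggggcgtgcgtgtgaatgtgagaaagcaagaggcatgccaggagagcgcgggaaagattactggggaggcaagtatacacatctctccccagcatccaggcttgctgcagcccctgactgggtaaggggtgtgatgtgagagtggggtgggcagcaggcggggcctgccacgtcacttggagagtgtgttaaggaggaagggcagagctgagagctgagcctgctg
Kcnj15: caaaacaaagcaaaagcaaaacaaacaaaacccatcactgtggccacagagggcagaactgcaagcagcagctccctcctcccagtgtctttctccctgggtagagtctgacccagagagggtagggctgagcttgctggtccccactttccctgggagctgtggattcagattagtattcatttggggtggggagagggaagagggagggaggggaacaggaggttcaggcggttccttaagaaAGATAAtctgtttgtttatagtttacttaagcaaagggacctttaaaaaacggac
Kcnj8: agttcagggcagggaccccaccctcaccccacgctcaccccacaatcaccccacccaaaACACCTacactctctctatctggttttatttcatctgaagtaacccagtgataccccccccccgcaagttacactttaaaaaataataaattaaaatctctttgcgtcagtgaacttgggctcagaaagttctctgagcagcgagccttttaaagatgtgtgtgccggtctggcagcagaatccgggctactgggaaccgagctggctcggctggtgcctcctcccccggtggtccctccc

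The motifs searched, on both strands, were a MEF2 core of CTA and TAG with any 4 bases between them, the GATA factor motif AGATAA and the T-box motif AGGTGT. The Kcnj15 stretch held AGATAA with its first base 5 bases before the start, at -5. The Kcnj8 stretch held ACACCT, the reverse complement of the T-box motif, at -191. The Kcnc4 and Kcna6 stretches held none of the 3 motifs. In the GENCODE annotation Kcnc4 begins further upstream, at chr3:107459552 on the minus strand, so the whole Kcnc4 stretch lies within that gene. Bases before that start were not searched. RefSeq promoters were found for 37 of the 50 members. Of these 37, 0 held the MEF2 core, 2 the GATA motif and 7 the T-box motif in at least 1 promoter, while 3.69%, 11.2% and 13.7% of 32851 mouse promoters held the same letters. The 37 members are counted per gene over 52 promoters, whereas these shares are per promoter, so the 2 cannot be compared directly. Among the 18 members called under MGT, 16 had a promoter and 5 of these held any motif. Among the 32 members not called, 21 had a promoter and 4 held any motif. A match or its absence describes only these letters in these windows.

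Summed over the 50 members, potassium channel RNA was similar in amount in every group, at 493.3 to 551.5 scaled CPM per library, but it came from different genes. In CM, 44 members averaged 1 scaled CPM or more, and in CF 41 did, against 28 to 30 in the cultured groups. The 50 members were chosen by a similar limit, which some, such as Kcne1 and Kcnip2, reached only in fresh libraries. These counts therefore partly follow from the choice of members, and they were not set against all genes. Compared per kilobase of exon, the level in CM was highest for Kcne1, the accessory subunit of the slow delayed rectifier, at 13.1 and 13.7 scaled CPM per kb. Kcnh2, the pore of the rapid delayed rectifier, followed at 12.1 and 13.0 per kb, close to the lower Kcne1 library. The next in CM were Kcnj8 at a mean of 10.1, Kcnj5 at 8.36 and Kcna5 at 8.16 per kb.

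CF had a different order per kilobase, led by Kcnj8, an inward rectifier of ATP-sensitive channels known from vascular mural cells, at a mean of 18.0 scaled CPM per kb. Kcne4, an accessory subunit that inhibits several voltage-gated pores, followed at 15.5 and Kcna5, the pore of the ultrarapid delayed rectifier, at 14.3 per kb. In the 4 cultured groups Kcne4 came first, at means of 47.6 to 58.6 per kb. Kcnj5, a subunit of the acetylcholine-activated inward rectifier, came second at means of 13.7 to 28.4 per kb. In control, Kcnj5 had 13.1 and 14.2 and Kcnj15 had 12.2 and 12.9 per kb, ranges that lay next to each other without overlap. MGT was the 1 group in which Kcnc4, a fast voltage-gated pore, came directly after these, at 7.95 and 8.24 per kb, above Kcnj15 at 6.98 and 7.48.

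**Figure D1:**
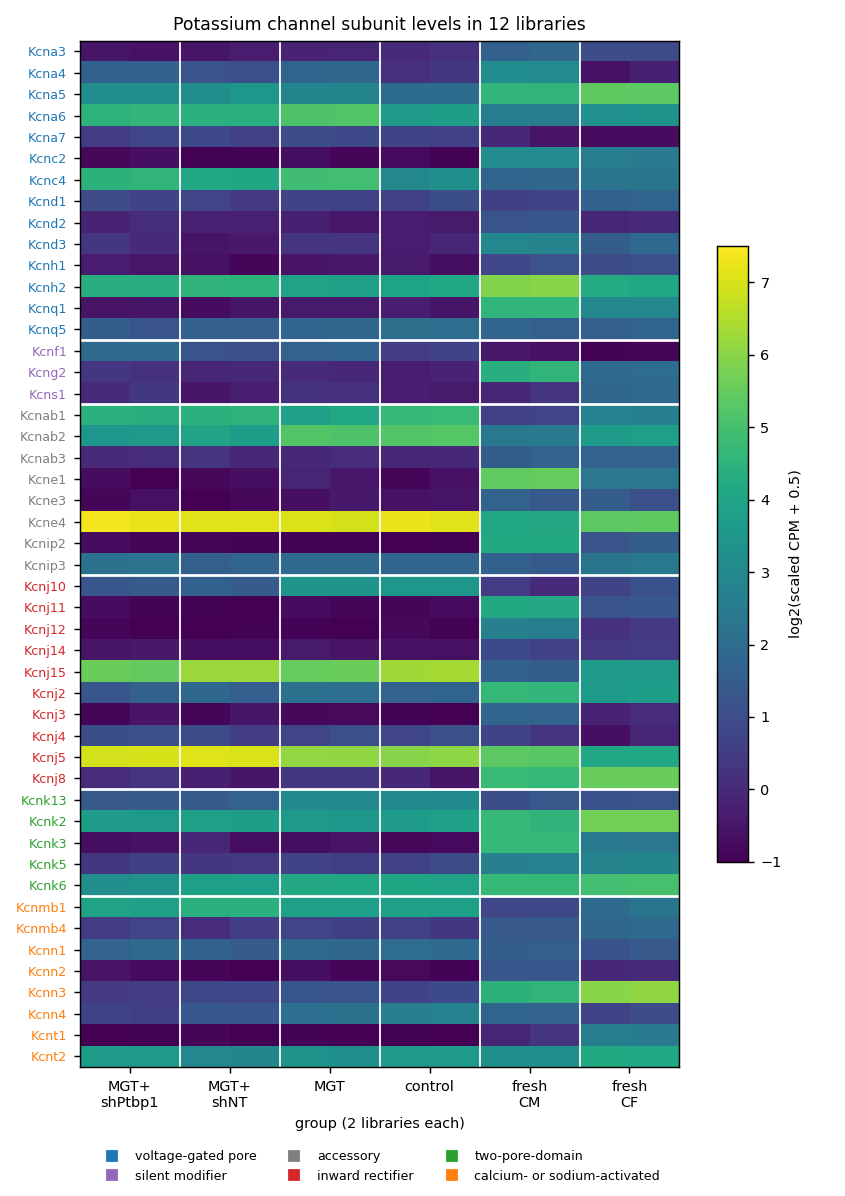
Levels of 48 tested potassium channel subunits in all 12 libraries, as log2(scaled CPM + 0.5), with 1 row per gene grouped by subunit class and 1 column per library ordered shPtbp1, shNT, MGT, control, CM and CF. Kcne1 shows 42.0 and 44.0 scaled CPM in CM and at most 0.413 in the cultured libraries, whereas Kcne4 shows 125 to 165 in the cultured libraries.

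Of the 42 members outside the test, Kcna10 and Kcnj6 had no read in any library and 22 stayed below 0.1 CPM throughout. By class, 16 of 30 voltage-gated pores, 3 of 10 silent subunits, 8 of 11 accessory subunits, 10 of 15 inward rectifiers, 5 of 14 two-pore-domain pores and 8 of 12 calcium- or sodium-activated members passed. Just inside the limit were Kcnj14, Kcna7 and Kcnj4, whose second highest library had 1.12, 1.29 and 1.56 CPM. Just outside were Kcnma1 and Kcna2, at 0.689 and 0.675 CPM. Kcnma1, the pore of the large-conductance calcium-activated channel, never exceeded 1.05 CPM, whereas its smooth-muscle accessory subunit Kcnmb1 had 13.54 to 20.7 scaled CPM in the cultured libraries.

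The comparison of CM with CF asked which subunits distinguish the 2 freshly isolated cell preparations. Several genes of the main cardiac currents were higher in CM, among them Kcna4, Kcne1, Kcnj11, Kcnip2 and Kcnh2, while Kcna5 and Kcnj8 were lower. A set that included Kcnj15, Kcnab1, Kcnn3 and Kcne4 was also lower. Of the 50 members, 23 were called higher and 21 lower at a limma adjusted p below 0.05, where 35% and 41.9% of all 13977 genes were called higher and lower. At least 2-fold changes were called for 14 members upward and 11 downward, against 8.2% and 4.02% of all genes. The median log2 fold change was 0.01 over the members and -0.05 over all genes, and the median absolute log2 fold change was 0.99 over the members and 0.37 over all genes. In bulk RNA, fewer cells of a type and less RNA per cell cannot be told apart, and each difference is one between 2 mixed preparations. The pericyte and smooth muscle markers summed to 1395 to 1417 in CM, against 1966 to 1992 in CF, with 2 higher and 5 lower, and the macrophage markers to 544.8 to 550.7 in CM, against 796.7 to 799.6 in CF, with 1 higher and 6 lower. Their part in the differences was not tested.

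Among voltage-gated pores, 8 of 16 were higher, 6 lower and 2 not called. Kcna4, a pore of the slow transient outward current, had 8.29 and 7.98 scaled CPM in CM, against 0.164 and 0.347 in CF, a log2 fold change of 3.53 ± 0.13 (SE, adjusted p = 8.35e-15). Kcnh2 had 58.6 and 62.9 in CM, against 18.4 and 16.7 in CF (1.76 ± 0.06, adjusted p = 1.02e-14). Kcnq1, the pore of the slow delayed rectifier, had 23.5 and 23.4 in CM, against 7.17 and 7.32 in CF (1.63 ± 0.12, adjusted p = 4.15e-10). In each of these 3 genes both CM libraries lay well above both CF libraries. Kcnd3 and Kcnd2, pores of the fast transient outward current, were also higher in CM. Kcnd3 had 7.24 and 6.42 in CM, against 2.36 and 3.21 in CF (1.17 ± 0.15, adjusted p = 8.2e-07). Kcnd2 had 1.81 and 1.98 in CM, against 0.431 and 0.501 in CF (1.31 ± 0.14, adjusted p = 5.84e-08).

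Other voltage-gated pores were lower in CM. Kcna5 had 23.5 and 23.2 scaled CPM in CM, against 41.6 and 40.3 in CF (-0.80 ± 0.08, adjusted p = 6.44e-08). Both CM libraries lay below both CF libraries. Kcnc4, at 2.80 and 3.02 in CM against 4.37 and 4.44 in CF, was lower by 0.52 on the log2 scale (adjusted p = 1.62e-05).

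Accessory and silent subunits held some of the largest differences. Kcne1 had 42.0 and 44.0 scaled CPM in CM, against 4.71 and 4.67 in CF (3.07 ± 0.14, adjusted p = 3.89e-13). Kcnip2, the calcium-binding partner of Kcnd pores, had 17.2 and 17.5 in CM, against 1.85 and 2.35 in CF (2.79 ± 0.13, adjusted p = 3.71e-13). Kcng2, a silent subunit, had 19.8 and 23.2 in CM, against 3.28 and 3.58 in CF (2.48 ± 0.12, adjusted p = 1.07e-12). In all 3 genes both CM libraries lay several-fold above both CF libraries. Of the accessory subunits, 4 were lower in CM. Kcne4 had 16.6 and 16.8 in CM, against 40.9 and 41.5 in CF (-1.28 ± 0.05, adjusted p = 3.9e-14). Kcnab1, a cytoplasmic beta subunit of Kcna pores, had 1.07 and 1.21 in CM, against 6.38 and 6.03 in CF (-2.03 ± 0.08, adjusted p = 5.57e-14). Kcnab2, its close relative, was lower by 1.25 on the log2 scale, and the silent subunit Kcns1 by 1.79.

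Inward rectifiers were mostly higher in CM, at 7 of 10, with 3 lower. Kcnj11, the pore of the cardiac ATP-sensitive channel, had 17.5 and 17.1 scaled CPM in CM, against 1.76 and 1.96 in CF (2.92 ± 0.12, adjusted p = 1.08e-13). Kcnj8, the alternative pore of that channel, had 26.5 and 25.1 in CM, against 45.6 and 46.1 in CF (-0.82 ± 0.14, adjusted p = 2.99e-05), so the ATP-sensitive pores differed in opposite directions. Kcnj2 and Kcnj12, which carry the current that holds the resting potential, were both higher. Kcnj2 had 24.6 and 23.4 in CM, against 11.8 and 12.8 in CF (0.94 ± 0.12, adjusted p = 8.4e-07). Kcnj12 had 6.04 and 5.37 in CM, against 0.647 and 0.834 in CF (adjusted p = 8.91e-12). Kcnj3 and Kcnj5, which form the acetylcholine-activated channel, were higher by 1.77 ± 0.15 and 1.22 ± 0.04. Kcnj15 had 2.61 and 2.36 in CM, against 11.9 and 11.5 in CF (-2.03 ± 0.06, adjusted p = 3.43e-16).

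Among background and ion-activated channels, Kcnk3, an acid-sensitive two-pore-domain pore, had 25.3 and 25.6 scaled CPM in CM, against 5.20 and 4.65 in CF (2.26 ± 0.15, adjusted p = 8.64e-11). Kcnk2, a mechanosensitive two-pore-domain pore, had 25.4 and 22.7 in CM, against 50.8 and 51.1 in CF (-1.07 ± 0.07, adjusted p = 5.69e-11). Kcnn3, a small-conductance calcium-activated pore, had 21.7 and 23.2 in CM, against 63.2 and 67.8 in CF (-1.52 ± 0.10, adjusted p = 7e-11). Kcnk3 was on the CM side and the other pair on the CF side, with no overlap of libraries. Kcnt1, a sodium-activated pore, had 0.419 and 0.749 in CM, against 5.67 and 5.29 in CF (-2.48 ± 0.14, adjusted p = 1.17e-11). Kcnmb1 was lower in CM by 1.33 on the log2 scale. The 6 members not called were Kcne3, Kcnk13, Kcnq5, Kcnh1, Kcnab3 and Kcnk5. Calls for Kcna7, Kcnf1, Kcnj14 and Kcnn1, all higher in CM by 0.27 to 0.42, were lost on leaving out a single library, at 0.16, 0.30, 0.19 and 0.30 on the log2 scale without CM replicate 1, and for Kcnn1 also at 0.24 without CM replicate 2 and 0.15 without CF replicate 1. Without CF replicate 1 and without CF replicate 2 the Kcna7 call was lost at 0.44 and 0.41 and the Kcnj14 call at 0.30 and 0.36.

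**Figure D2:**
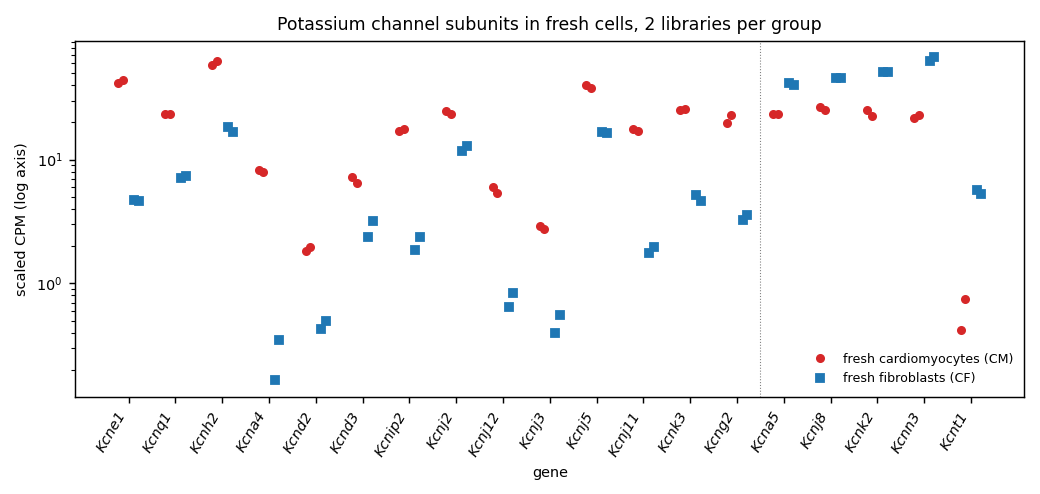
Scaled CPM on a log axis of 19 potassium channel subunits in the 2 CM libraries (red circles) and the 2 CF libraries (blue squares), with a dotted line between the 14 plotted members called higher in CM and the 5 plotted members called lower. Kcne1 reaches 42.0 and 44.0 in CM against 4.71 and 4.67 in CF, and Kcnn3 21.7 and 23.2 in CM against 63.2 and 67.8 in CF.

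Control libraries were compared with CF to describe how fibroblast channel RNA differed after 3 days in culture with a control virus. RNA of the 3 MGT factors was not equal in these groups. Tbx5 had 645 and 677 scaled CPM in control, against 6.82 and 7.41 in CF. Mef2c had 313.2 and 330.5 in control, against 136.9 and 136.0 in CF, and Gata4 340.8 and 374.7, against 215.7 and 214.6. The source of this RNA in control was not tested. Kcnj8, Kcnn3, Kcna5, Kcnq1 and Kcnk3 fell and Kcnj15, Kcne4, Kcnj5 and Kcnab1 rose. All 50 members were called, 17 higher and 33 lower, where 44.5% and 42.6% of all genes were called higher and lower. At least 2-fold changes were called for 12 members upward and 25 downward, against 12.4% and 17.4% of all genes. The members' median log2 fold change was -0.96 and that of all genes 0.03, and the medians of the absolute value were 1.79 and 0.63. Culture, serum, time and virus changed together here and cannot be told apart.

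On the log2 scale with 0.5 added, the steepest falls were in Kcnj8 and Kcnn3. This order depends on the added 0.5. Kcnt1 and Kcnip2, with few reads in control, reached larger falls than either gene in other settings. Kcnj8 had 0.495 and 0.203 scaled CPM in control, against 45.6 and 46.1 in CF (-5.79 ± 0.14, adjusted p = 3.38e-18). Kcnn3 had 1.13 and 1.40 in control, against 63.2 and 67.8 in CF (-5.23 ± 0.10, adjusted p = 1.09e-19). In both genes the control libraries were near 1 scaled CPM or below and far from the CF libraries. Abcc9, the regulatory subunit that pairs with Kcnj8 in vascular ATP-sensitive channels and is no member of the symbol rule, averaged 1.79 in control, against 269 in CF (-6.88, adjusted p = 1.63e-22). The pericyte gene Rgs5 had 2.65 and 2.38 in control, against 171 and 180 in CF, while the 8 pericyte and smooth muscle markers went both ways, with 3 higher, 4 lower and 1 not called. Among them Notch3 averaged 61.9 in control and 546 in CF, and Myh11 averaged 32.0 in control and 159 in CF, while Des averaged 458 in control and 71.6 in CF and Cnn1 averaged 54.6 in control and 5.85 in CF. Their sum of 1420 to 1509 in control, against 1966 to 1992 in CF, was carried largely by Pdgfrb and Des in control. All 8 endothelial markers fell, to a sum of 192.5 to 198.6 in control against 3130 to 3194 in CF. The part of these cell types in the falls was not tested.

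Voltage-gated pores fell in 11 of 16 cases. Kcna5 had 3.53 and 3.54 scaled CPM in control, against 41.6 and 40.3 in CF (-3.36 ± 0.08, adjusted p = 6.28e-18). Kcnq1 had 0.323 and 0.192 in control, against 7.17 and 7.32 in CF (-3.36 ± 0.12, adjusted p = 1.91e-15). Both had separate ranges, and Kcnq1 was at a low level in control. Kcnc2, another fast voltage-gated pore, had 0.0969 and 0.0226 in control, from 9 and 2 reads, against 5.40 and 5.17 in CF. Kcnd3 fell by 1.90 on the log2 scale. Kcnd2 fell by 0.31 and Kcnh2 by 0.17 with all libraries, but both calls were lost when single libraries were left out: Kcnd2 was at -0.35 and -0.27 without control replicate 1 and 2 and at -0.36 and -0.26 without CF replicate 1 and 2, and Kcnh2 at -0.09 without control replicate 1 and -0.10 without CF replicate 1.

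Kcnk3 had 0.0646 and 0.0903 scaled CPM in control, against 5.20 and 4.65 in CF (-3.23 ± 0.15, adjusted p = 1.25e-13). Kcne1 had 0.0538 and 0.169 in control, against 4.71 and 4.67 in CF (-3.09 ± 0.14, adjusted p = 9.96e-14). Both genes were also higher in CM than in the same CF libraries. Of the cardiomyocyte markers, 6 of 8 fell in control although their sum was larger, at 2384 to 2604 against 1512 to 1548 in CF. Tnnt2 alone made up most of the control sum, at 2423 and 2186 in control against 178.6 and 186.7 in CF. Kcnip2 and Kcnt1 each had 2 reads in all in the control libraries, against 1.85 and 2.35 scaled CPM for Kcnip2 and 5.67 and 5.29 for Kcnt1 in CF, and no fold is given for them. Kcnj2 fell by 1.96 and Kcnk2 by 1.92 on the log2 scale. Kcnj11 fell by 2.04 and Kcnj3 by 0.90, values that the added 0.5 makes smaller. Kcnj11 averaged 0.0721 scaled CPM in control and 1.86 in CF. Kcnj3 averaged 0.0218 in control, from 3 and 1 reads, and 0.476 in CF. In other settings Kcnj11 and Kcnj3 reached -4.72 and -4.45.

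The 17 members that rose included 4 inward rectifiers. Kcnj15 had 76.8 and 81.3 scaled CPM in control, against 11.9 and 11.5 in CF (2.70 ± 0.06, adjusted p = 8.75e-19). Kcnj5 had 61.5 and 66.6 in control, against 16.7 and 16.5 in CF (1.92 ± 0.04, adjusted p = 2.06e-18). Kcnj10, a rectifier best known from glia, had 10.9 and 10.8 in control, against 1.19 and 1.71 in CF (2.55 ± 0.14, adjusted p = 1.09e-12). In all 3 the control libraries lay several-fold above the CF libraries. Kcne4 had 151 and 136 in control, against 40.9 and 41.5 in CF (1.78 ± 0.05, adjusted p = 4.91e-17). Kcnab1 had 24.99 and 25.86 in control, against 6.38 and 6.03 in CF (1.95 ± 0.08, adjusted p = 2.77e-14).

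Kcnmb1 rose by 1.71 ± 0.10, Kcnab2 by 1.51 ± 0.08, Kcnc4 by 0.80 ± 0.08 and Kcna6 by 0.36 ± 0.07 on the log2 scale. Kcnn4, the intermediate-conductance calcium-activated pore of fibroblasts and immune cells, had 5.66 and 6.25 scaled CPM in control, against 1.19 and 1.52 in CF (1.81 ± 0.12, adjusted p = 1.72e-11). Kcnk13, a two-pore-domain pore known from microglia, rose by 1.90 ± 0.11. The 8 macrophage markers in the table moved with this group of genes, at a sum of 3166 to 3388 in control against 796.7 to 799.6 in CF, with 6 higher and 2 lower. Of these, Lyz2 accounted for a mean of 2142 in control against 159 in CF, while Csf1r was at 192 and 206 in control against 260 and 264 in CF. Their part in the rises was not tested.

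**Figure D3:**
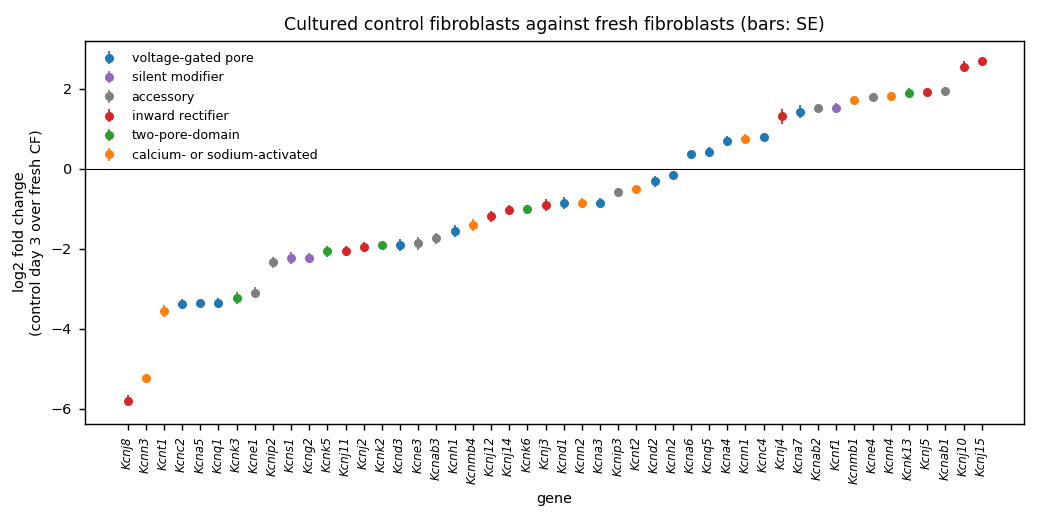
Log2 fold change of control over CF for 48 potassium channel subunits, sorted and coloured by subunit class, with bars for the standard error from the limma fit on log2(scaled CPM + 0.5). The values run from -5.79 for Kcnj8 to 2.70 for Kcnj15, and those of members with only a few reads in control, such as Kcnt1 and Kcnip2, depend on the added 0.5.

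MGT was compared with control to show how channel RNA differed 3 days after infection with the 3 cardiac factors. Control also held RNA of these factors. Tbx5 had 1770 and 1849 scaled CPM in MGT, against 645 and 677 in control. Mef2c had 719.8 and 761.9 in MGT, against 313.2 and 330.5 in control, and Gata4 682.9 and 701.7, against 340.8 and 374.7. A few voltage-gated and silent subunits, Kcnc4, Kcna4, Kcna6, Kcnf1 and Kcna5, rose, and Kcnj15, Kcnab1 and Kcnn4 fell. Of the 50 members, 12 were called higher and 6 lower, where 18% and 17.6% of all genes were called higher and lower. The members' shares were 24.0% and 12%. At least 2-fold changes were called in this fit for 4 members upward and 0 downward, against 0.773% and 0.107% of all genes. In other settings Kcnj8 and Kcns1, low in level and called here at less than 2-fold, reached 1.19 and 1.125 on the log2 scale. The median log2 fold change was 0.04 over the members and -0.01 over all genes, and the medians of the absolute value were 0.18 and 0.12.

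Among voltage-gated pores, 6 of 16 rose and 0 fell. Kcnc4 had 29.2 and 30.2 scaled CPM in MGT, against 7.34 and 8.80 in control (1.82 ± 0.08, adjusted p = 7.81e-12). Kcna6, a Kcna-family delayed rectifier pore, had 34.6 and 35.7 in MGT, against 11.6 and 13.0 in control (1.48 ± 0.07, adjusted p = 9.16e-12). Kcna4 had 2.81 and 3.04 in MGT, against 0.614 and 0.801 in control (1.51 ± 0.13, adjusted p = 3.33e-08). In all 3 genes the lower MGT library was more than 2 times the higher control library. Kcna6 shares 2355 of its 5945 exonic bases with Gm26673 on the opposite strand, and since the strand setting of the counting is not given in the sources used here, reads of the pair cannot be told apart.

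Kcna5 had 6.61 and 6.56 scaled CPM in MGT, against 3.53 and 3.54 in control (0.81 ± 0.08, adjusted p = 4.76e-07). It lay between control and CF, where it had 41.6 and 40.3. Kcnf1, a silent subunit, had 2.68 and 2.96 in MGT, against 0.958 and 1.16 in control (1.09 ± 0.12, adjusted p = 1.2e-06). Kcnf1 and Kcna5 kept their calls in every alternative tried. The silent subunit Kcns1 rose by 0.52, from means below 1 scaled CPM in both groups, and was not called without MGT replicate 1 (0.48) or without control replicate 2 (0.48).

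Of the subunits of the main cardiac currents other than Kcna4 and Kcna5, Kcnj2, Kcnd3, Kcne1 and Kcnj8 were called higher. The others named here were not called with all libraries. Kcnh2 had 14.4 and 14.2 scaled CPM in MGT, against 14.7 and 16.5 in control (-0.12 ± 0.06, adjusted p = 0.159), though it was called lower at -0.20 without control replicate 1. Kcnj5 had 69.0 and 67.3 in MGT, against 61.5 and 66.6 in control (0.09 ± 0.04, adjusted p = 0.125), though it was called higher at 0.15 without control replicate 2. Kcnq1 had 0.259 and 0.268 in MGT, against 0.323 and 0.192 in control (0.02 ± 0.12, adjusted p = 0.933). Kcnip2, Kcnj3, Kcnj11 and Kcnk3 were all below 0.2 scaled CPM in each MGT and control library, and Kcnd2 was at 0.234 to 0.330 in these 4 libraries. None of these was called, and their levels were low. Kcnj8 had 0.801 and 0.803 in MGT, against 0.495 and 0.203 in control (0.64 ± 0.14, adjusted p = 0.0014), which left it far under its 45.6 and 46.1 in CF. Kcnn3 had 1.90 and 1.86 in MGT, against 1.13 and 1.40 in control (0.44 ± 0.10, adjusted p = 0.00217).

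Kcnj2 had 4.11 and 3.72 scaled CPM in MGT, against 2.72 and 2.86 in control (0.42 ± 0.12, adjusted p = 0.0093), and this call was lost at 0.36 without MGT replicate 1. Kcnd3 had 0.754 and 0.725 in MGT, against 0.302 and 0.451 in control (0.51 ± 0.15, adjusted p = 0.0123). Its call was lost at 0.38 without control replicate 1, at 0.49 without MGT replicate 1 and at 0.52 without MGT replicate 2. Kcne1 had 0.413 and 0.223 in MGT, against 0.0538 and 0.169 in control, a called change (0.42 ± 0.14, adjusted p = 0.029) that was lost at 0.25 without MGT replicate 1 and 0.28 without control replicate 1. The ranges of MGT and control did not overlap in Kcnj2, Kcnd3 or Kcne1.

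Of the 6 members that fell, Kcnj15 had 44.1 and 47.2 scaled CPM in MGT, against 76.8 and 81.3 in control (-0.79 ± 0.06, adjusted p = 7.46e-09). Kcnab1 had 14.2 and 16.4 in MGT, against 24.99 and 25.86 in control (-0.72 ± 0.08, adjusted p = 1.8e-06). Kcnn4 had 3.81 and 4.09 in MGT, against 5.66 and 6.25 in control (-0.54 ± 0.12, adjusted p = 0.00123). These 3 had risen between CF and the control culture, a comparison that uses the same control libraries. Kcnt2, a sodium-activated pore, fell by 0.32. Kcnk2 fell by 0.22 and Kcne4 by 0.18, calls that were lost at -0.13 and -0.19 for Kcnk2 without control replicate 2 and MGT replicate 2, and at -0.10 and -0.16 for Kcne4 without control replicate 1 and MGT replicate 2.

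Marker sums also differed between MGT and control. Cardiomyocyte markers were at 3354 to 3537 scaled CPM in MGT, against 2384 to 2604 in control, with 7 of 8 higher. Most of both sums was Tnnt2, at 3059 and 3245 in MGT and 2423 and 2186 in control. Fibroblast markers were at 12950 to 13120 in MGT, against 15550 to 17750 in control, with 6 of 8 lower and 1 higher. Macrophage markers were at 3359 to 3459 in MGT, against 3166 to 3388 in control, with 1 higher and 4 lower. Endothelial markers were at 172.9 to 181.0 in MGT, against 192.5 to 198.6 in control, with 1 higher, 5 lower and a median log2 fold change of -0.53. Pericyte and smooth muscle markers were at 1652 to 1696 in MGT, against 1420 to 1509 in control, with 1 higher and 3 lower. The part of these cells in the channel changes was not tested. CM against CF and MGT against control share no library, and of the 12 members higher in MGT, 5 were higher and 7 lower in CM. Over all genes, 32.8% of those higher in MGT were higher and 49.4% lower in CM. Of the 6 members lower in MGT, 1 was higher and 5 were lower in CM, where 42.2% of all genes lower in MGT were higher and 38.6% lower in CM. The members' split was not tested against that of all genes.

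**Figure D4:**
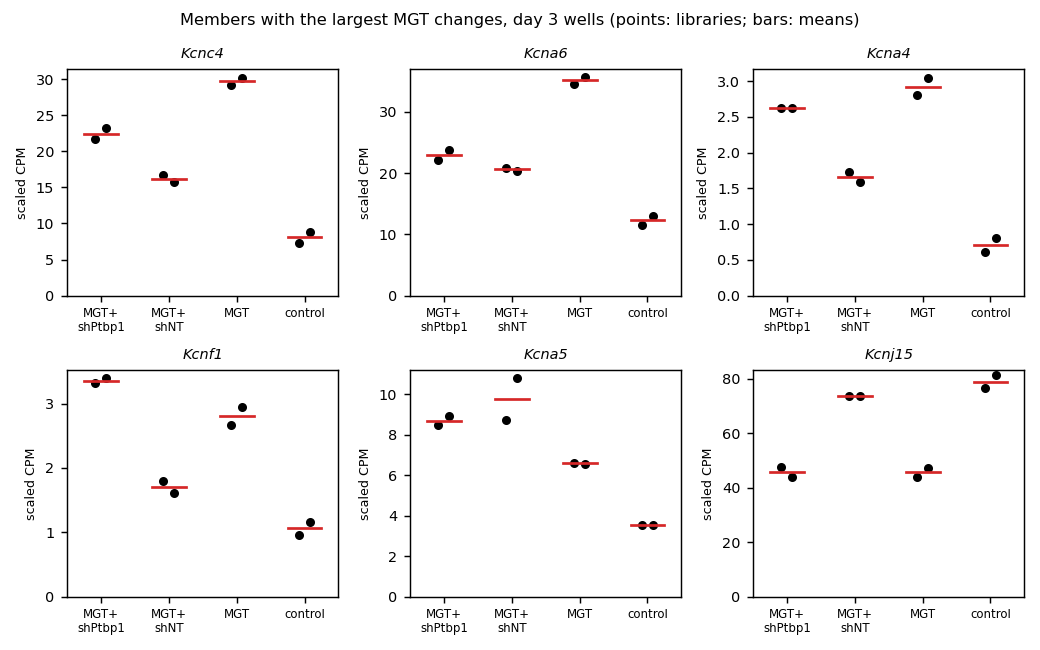
Scaled CPM of Kcnc4, Kcna6, Kcna4, Kcnf1, Kcna5 and Kcnj15 in the shPtbp1, shNT, MGT and control libraries, with points for the 2 libraries of each group and red bars for their mean. Kcnc4 lies at 29.2 and 30.2 in MGT against 7.34 and 8.80 in control, and Kcnj15 at 44.1 and 47.2 in MGT against 76.8 and 81.3 in control.

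The shNT and MGT groups differ by a non-targeting lentivirus, and this comparison shows how far channel RNA moved without a knockdown target. RNA of the 3 MGT factors was also lower in shNT. Mef2c had 476.0 and 470.3 scaled CPM in shNT, against 719.8 and 761.9 in MGT. Tbx5 had 1561 and 1543 in shNT, against 1770 and 1849 in MGT, and Gata4 644.9 and 626.2, against 682.9 and 701.7. The part of these levels in the channel changes was not tested. Kcnj10, Kcnk13 and Kcnab2 fell more than 2-fold, Kcnc4, Kcna6 and Kcna4 fell less, and Kcnj5, Kcnj15 and Kcnh2 rose. Of the 50 members, 7 were called higher and 19 lower, where 24.6% and 20.1% of all genes were called higher and lower. At least 2-fold changes were called in this fit for 0 members upward and 3 downward, against 0.272% and 3.24% of all genes. On the recovered reads, Kcne3 was also called, at -2.26 with edgeR and -2.28 with DESeq2, from 1 and 6 reads in shNT. Kcnj11 was called at -2.15 and -2.23, from 2 and 1 reads in shNT. Kcnd3, Kcnj8, Kcne1 and Kcns1, called here at less than 2-fold and low in level, reached -1.785, -1.567, -1.626 and -1.295 in other settings. The median log2 fold change was -0.21 over the members and 0.02 over all genes. The MGT libraries of this comparison are those set against control above.

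Kcnj10 had 2.60 and 2.31 scaled CPM in shNT, against 9.96 and 9.93 in MGT (-1.82 ± 0.14, adjusted p = 2.1e-09). Kcnk13 had 2.304 and 2.696 in shNT, against 7.86 and 7.78 in MGT (adjusted p = 2.47e-09). Kcnab2 had 14.9 and 13.0 in shNT, against 37.0 and 34.1 in MGT (-1.32 ± 0.08, adjusted p = 5.57e-11). All 3 were near their control level in MGT and below it in both hairpin groups. All 8 macrophage markers fell as well, to a sum of 1274 to 1329 in shNT against 3359 to 3459 in MGT. C1qa, a complement gene of macrophages, averaged 60.6 in shNT against 283 in MGT, and the receptor gene Csf1r averaged 51.2 against 172. Their part in the fall of the channel genes was not tested.

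Kcnn4 had 2.00 and 2.00 scaled CPM in shNT, against 3.81 and 4.09 in MGT (-0.83 ± 0.12, adjusted p = 8.45e-06). Kcnc4, Kcna6, Kcna4 and Kcnf1, which rose under MGT, fell in shNT relative to MGT, with both shNT libraries above both control libraries. Kcnc4 had 16.7 and 15.7 in shNT, against 29.2 and 30.2 in MGT (-0.86 ± 0.08, adjusted p = 1.08e-07). Kcna6 had 20.9 and 20.4 in shNT, against 34.6 and 35.7 in MGT (-0.76 ± 0.07, adjusted p = 4.18e-08). Kcna4 fell by 0.66 ± 0.13 and Kcnf1 by 0.59 ± 0.12. Kcnd3 and Kcnj8, both under 1 scaled CPM in shNT, fell by 0.79 and 0.76, values that the added 0.5 makes smaller. Kcnd3 averaged 0.217 in shNT and 0.740 in MGT, and Kcnj8 averaged 0.274 in shNT and 0.802 in MGT.

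Kcnj5 was the member with the largest rise, at 136 and 130 scaled CPM in shNT, against 69.0 and 67.3 in MGT (0.96 ± 0.04, adjusted p = 1.76e-12). Kcnj15 had 73.6 and 73.5 in shNT, against 44.1 and 47.2 in MGT (0.68 ± 0.06, adjusted p = 1.79e-08). Kcnh2 had 22.4 and 22.1 in shNT, against 14.4 and 14.2 in MGT (0.62 ± 0.06, adjusted p = 1.98e-07). No library overlapped between the groups in any of the 3. Of the endothelial markers, 5 were higher and 1 lower in shNT than in MGT, at a sum of 184.0 to 192.0 in shNT against 172.9 to 181.0 in MGT and a median log2 fold change of 0.45, and their part in these rises was not tested. Kcnmb1 rose by 0.56, Kcna5 by 0.53, Kcnab1 by 0.50 and Kcnk2 by 0.25. Of the smaller changes, those of Kcne1, Kcnip3, Kcnj2, Kcnk2, Kcnmb4, Kcnn1 and Kcns1 lost their call when 1 library was left out. Without shNT replicate 1 this held for Kcne1 (-0.35), Kcnip3 (-0.20), Kcnk2 (0.21), Kcnmb4 (-0.17) and Kcns1 (-0.47). Without shNT replicate 2 it held for Kcnj2 (-0.28) and Kcnn1 (-0.26). Without MGT replicate 1 it held for Kcne1 (-0.26), Kcnip3 (-0.27), Kcnj2 (-0.38), Kcnmb4 (-0.31) and Kcnn1 (-0.31), and without MGT replicate 2 for Kcnip3 (-0.29), Kcnk2 (0.22) and Kcnmb4 (-0.48). Kcnk3 was called higher, at 0.52, only without shNT replicate 2.

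**Figure D5:**
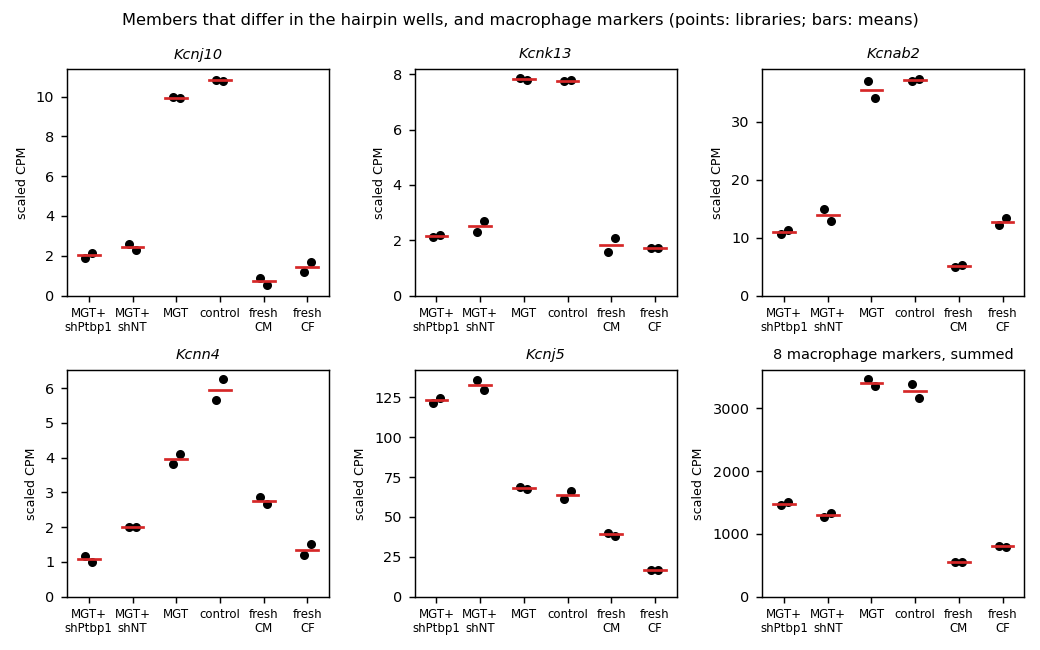
Scaled CPM of Kcnj10, Kcnk13, Kcnab2, Kcnn4 and Kcnj5, and the sum of 8 macrophage markers, in the 6 groups, with a point for each library. Kcnj10 lies at 2.60 and 2.31 in shNT against 9.96 and 9.93 in MGT, and the macrophage markers sum to 1274 to 1329 in shNT against 3359 to 3459 in MGT.

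The shPtbp1 and shNT groups both carried MGT and a lentiviral hairpin, and their comparison asked what Ptbp1 depletion changed. RNA of the 3 MGT factors was somewhat higher in shPtbp1. Mef2c had 545.8 and 513.5 scaled CPM in shPtbp1, against 476.0 and 470.3 in shNT. Tbx5 had 1642 and 1759 in shPtbp1, against 1561 and 1543 in shNT, and Gata4 658.8 and 647.1, against 644.9 and 626.2. The part of these levels in the channel changes was not tested. Kcnf1, Kcnt2, Kcnip3, Kcna4 and Kcnc4 rose and Kcnj15, Kcnn4, Kcnk6 and Kcnmb1 fell, none of them by 2-fold. Of the 50 members, 10 were called higher and 6 lower, where 17% and 17.8% of all genes were called higher and lower. The members' shares were 20.0% and 12%. At least 2-fold changes were called in this fit for 0 members in either direction, against 0.422% of all genes upward and 0.222% downward. In other settings the log2 changes of Kcnd3, Kcnj8 and Kcns1, all called here, reached 1.566, 1.181 and 1.321. On the recovered reads, Kcnn2 was also called, at 2.23 with edgeR and 2.28 with DESeq2, from 4 and 1 reads in shNT. Kcnh1 was called at 1.36 and 1.37. The median log2 fold change was 0.07 over the members and 0.00 over all genes. The shNT libraries are those set against MGT above, so the 2 comparisons are not independent of each other.

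Voltage-gated pores rose in 4 of 16 cases and fell in 0. Kcnc4 had 21.7 and 23.2 scaled CPM in shPtbp1, against 16.7 and 15.7 in shNT (0.46 ± 0.08, adjusted p = 0.000314). Kcna4 had 2.62 and 2.63 in shPtbp1, against 1.73 and 1.60 in shNT (0.53 ± 0.13, adjusted p = 0.00317). Kcnd3 had 0.777 and 0.506 in shPtbp1, against 0.194 and 0.241 in shNT (0.66 ± 0.15, adjusted p = 0.00192). All 3 had separate ranges, and for Kcnc4 and Kcna4 the shPtbp1 libraries stayed below both MGT libraries.

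Both silent subunits that were called rose. Kcnf1 had 3.32 and 3.40 scaled CPM in shPtbp1, against 1.80 and 1.61 in shNT (0.81 ± 0.12, adjusted p = 4.06e-05). Kcns1 rose by 0.60 from means below 1 scaled CPM, and was not called without shPtbp1 replicate 2 (0.44) or without shNT replicate 1 (0.49). Kcnip3, a calcium-binding accessory subunit, had 4.14 and 4.20 in shPtbp1, against 2.51 and 2.89 in shNT (0.55 ± 0.11, adjusted p = 0.000664). Kcnt2 had 11.97 and 11.22 in shPtbp1, against 7.19 and 6.85 in shNT (0.69 ± 0.07, adjusted p = 7.25e-07). Kcnf1, Kcnip3 and Kcnt2 had both shPtbp1 libraries above both shNT libraries. Kcne4, at 165 and 147 in shPtbp1 against 138 and 136 in shNT, rose by 0.18, and Kcnj8 by 0.54 from under 1 scaled CPM. The Kcne4 call was lost at 0.10 without shPtbp1 replicate 1 and at 0.18 without shNT replicate 2, and the Kcnj8 call at 0.44 without shPtbp1 replicate 2 and at 0.41 without shNT replicate 2.

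Kcnj15 fell, with 47.7 and 43.8 scaled CPM in shPtbp1, against 73.6 and 73.5 in shNT (-0.68 ± 0.06, adjusted p = 5.54e-08), a range that overlapped that of MGT at 44.1 and 47.2. Kcnk6, a two-pore-domain pore, had 8.67 and 9.73 in shPtbp1, against 13.83 and 13.46 in shNT (-0.55 ± 0.07, adjusted p = 5.57e-06). Kcnmb1 had 15.0 and 14.1 in shPtbp1, against 20.7 and 20.6 in shNT (-0.49 ± 0.10, adjusted p = 0.000515). In these 3 the shPtbp1 libraries lay below both shNT libraries. Kcnn4 had 1.16 and 0.983 in shPtbp1, against 2.00 and 2.00 in shNT (-0.67 ± 0.12, adjusted p = 0.000167). Kcnab2 fell by 0.33 and Kcnn3 by 0.33. The Kcnab2 call was lost at -0.23 without shNT replicate 1, and the Kcnn3 call at -0.27 without shPtbp1 replicate 1 and -0.30 without shNT replicate 1.

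Among subunits of the main cardiac currents, Kcnj5 (-0.11, adjusted p = 0.0724), Kcnh2 (-0.13, adjusted p = 0.128), Kcna5 (-0.15, adjusted p = 0.173), Kcnj2 (-0.25, adjusted p = 0.123) and Kcnq1 (0.06, adjusted p = 0.742) were not called after Ptbp1 depletion. Their standard errors lay between 0.04 and 0.12. Kcnd2, Kcne1, Kcnip2, Kcnj3, Kcnj11 and Kcnk3, all below 0.6 scaled CPM in these 4 libraries, were not called either. Kcna5 was called lower at -0.30 without shNT replicate 1, Kcnj2 lower at -0.41 without shNT replicate 2 and at -0.42 without shPtbp1 replicate 2, and Kcnk3 lower at -0.53 without shNT replicate 2. Cardiomyocyte markers summed to 4182 to 4493 in shPtbp1, against 3482 to 3756 in shNT, with 7 of 8 higher. Most of both sums was Tnnt2, at 3803 and 4133 in shPtbp1 and 3169 and 3449 in shNT. Macrophage markers summed to 1457 to 1505 in shPtbp1, against 1274 to 1329 in shNT, with 1 higher and 6 lower. Fibroblast markers summed to 12530 to 13650 in shPtbp1, against 12370 to 12890 in shNT, with 4 higher and 0 lower. The part of these cells in the channel changes was not tested.

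Partners that act on these channels but carry other names were followed as a list of 19 genes, of which 18 were in the table and 13 were tested. In CM against CF, 5 were higher and 7 lower, where 35% and 41.9% of all genes were, and their median log2 fold change was -0.25 against -0.05 over all genes. Abcc8, a sulfonylurea receptor that pairs with Kcnj11, averaged 16.5 scaled CPM in CM and 1.83 in CF (2.87 ± 0.12, adjusted p = 7.61e-14), and Abcc9 averaged 211 in CM and 269 in CF (-0.35 ± 0.08, adjusted p = 0.00105), so the receptors differed in the same directions as Kcnj11 and Kcnj8. Cav3, the muscle caveolin, averaged 37.9 in CM and 3.30 in CF, and Irx5, a transcription factor known as a repressor of Kcnd2 in mouse heart, averaged 10.4 in CM and 1.33 in CF.

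In control against CF, 3 of the 13 partners rose and 10 fell, where 44.5% and 42.6% of all genes did, and their median was -1.12 against 0.03 over all genes. Kcne1l, an accessory subunit of the Kcne group that the symbol rule leaves out, averaged 1.19 scaled CPM in control and 16.9 in CF (-3.38 ± 0.14, adjusted p = 2.81e-14). Cav3 rose, with averages of 16.2 in control and 3.30 in CF. Under MGT 5 partners rose and 3 fell, where 18% and 17.6% of all genes did, with a median of 0.12, and the largest changes were those of Abcc9, at 3.56 in MGT and 1.79 in control (0.82 ± 0.08, adjusted p = 4.43e-07), and of the ubiquitin ligase Nedd4l, at 63.9 in MGT and 40.9 in control (0.64 ± 0.04, adjusted p = 1.32e-09). In shNT against MGT 3 rose and 1 fell (median 0.02), where 24.6% and 20.1% of all genes did, with Abcc9 at 1.76 in shNT and 3.56 in MGT (-0.84 ± 0.08, adjusted p = 1.45e-07). After Ptbp1 depletion 4 rose and 0 fell (median 0.08), where 17% and 17.8% of all genes did, with Abcc9 at 2.59 in shPtbp1 and 1.76 in shNT (0.45 ± 0.08, adjusted p = 0.000427) and Cav3 at 21.6 in shPtbp1 and 16.8 in shNT (0.36 ± 0.06, adjusted p = 0.000265).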

How the data were processed

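Poly(A) RNA of 12 libraries, 2 in each of 6 groups, was sequenced with a stranded kit per the labels' protocols. The authors deposited 1 table of CPM (counts in 1000000 assigned reads) for 23423 rows, and per the submitters' processing notes FastQC, TopHat2 2.1.0, HTSeq 0.6.1p1 and the mm10 build were used. Neither the annotation nor the strand setting is given in the sources used here. Column names gave the sample of each of the 12 columns, and 27 rows with date-like symbols were kept as they stood. Within a tolerance of 0.1 read, 100% of the deposited CPM values were whole reads, so depth and reads per gene were recovered.

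Each library's CPM were scaled by its median-of-ratios factor. Genes with at least 1 CPM in 2 or more libraries were tested with limma 3.58.1 (R 4.3.3) on log2(scaled CPM + 0.5), 1 mean per group over all 12 libraries, two-sided, with Benjamini-Hochberg adjustment over all 13977 genes within each comparison and a threshold of 0.05. Fold changes are on that log2 scale, which understates low genes. The fitting script was tested on simulated data. An exact rank test of 2 against 2 libraries could not go below p = 0.333, so none is given.

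Levels per kb use GENCODE GRCm38 exon lengths, and promoters and their motifs come from RefSeq (GRCm38.p6). The members, the partner, pump and marker lists and the rule for named genes (per comparison, up to 10 called genes each way by fold change with 2 scaled CPM or more in the higher group, a set of cardiac subunits, and up to 4 partners) were chosen with earlier results of these data known. Kcnma1, although in that set, was not tested. Smaller calls are given as values. Some members and pump genes are counted in the totals but not reported here by name. Alternatives were other scalings, pseudocounts, filters, the 4 compared libraries alone, a replicate block, leaving out each library, and edgeR 4.0.16 and DESeq2 1.42.0 on the recovered reads. Chi-square per gene between the 2 libraries of a group was 3.68 to 17.1, above sampling noise, so they were not repeat reads of 1 library. This value cannot tell separate preparations of 1 RNA sample from separate samples.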

Additional observations from a re-analysis of the deposited data

How the results depend on the processing

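No called fold change of the 50 members changed sign under any alternative, 30 calls were gained and 107 lost over all members and settings, and calls held in every alternative for 39 of 44 members in CM against CF, 11 of 18 in MGT against control, 10 of 16 in shPtbp1 against shNT, 19 of 26 in shNT against MGT and 48 of 50 in control against CF. With a filter at 5 CPM only 33 members were tested, and 14 were then higher in CM against CF and 21 lower in control against CF. Leaving out each library in turn gave 19 to 22 members higher and 21 to 21 lower in CM against CF, 8 to 12 and 5 to 6 in MGT against control, 8 to 9 and 5 to 8 in shPtbp1 against shNT, 6 to 8 and 14 to 17 in shNT against MGT, and 17 to 17 and 31 to 32 in control against CF. Over all genes, the count lower in MGT was 2465 with every library and 1600 without MGT replicate 2. edgeR's quasi-likelihood test on the recovered reads called 2578 genes higher and 2578 lower in MGT. Without the further scaling the all-gene median of control against CF moved from 0.03 to -0.10 on the log2 scale. Labels give groups the same replicate numbers but nothing that pairs them, and the correlation of same-numbered deviations was -0.005 for CM and CF, -0.03 for MGT and control, 0.16 for shPtbp1 and shNT, 0.02 for shNT and MGT and -0.01 for control and CF. With the replicate block 22 members were higher in CM against CF, since Kcnn1 lost its call at an adjusted p of 0.0529, and the other 249 member results, called or not, kept their side of the threshold. The 2 libraries per group and the few reads behind genes such as Kcnip2 and Kcnt1 in culture limit what small changes could be detected.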

Other observations

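The sodium-potassium pump, which builds the potassium gradient that the channels use, was followed as a list of 13 genes, of which 11 were tested. In CM against CF, 5 were higher and 4 lower, where 35% and 41.9% of all genes were. The accessory subunit Atp1b1 averaged 118 scaled CPM in CM and 43.7 in CF (log2 fold change 1.43), and the regulator Fxyd1 averaged 92.8 in CM and 38.0 in CF (1.28). In control against CF, 6 rose and 5 fell, where 44.5% and 42.6% of all genes did. Atp1b1 averaged 161 in control and 43.7 in CF (1.87). The related subunit Atp1b2 averaged 3.27 in control and 92.9 in CF (-4.63), so the accessory subunits moved in both directions. Under MGT 3 rose and 3 fell, where 18% and 17.6% of all genes did. In shNT against MGT 1 rose and 3 fell, where 24.6% and 20.1% of all genes did, with Atp1b1 at 201 in shNT and 134 in MGT (0.59). After Ptbp1 depletion 2 rose and 2 fell, where 17% and 17.8% of all genes did.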
